A study of Mus musculus with 14 samples.

Results

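The cytokines through which bone cells address osteoclast precursors and blood-forming cells were followed in Ocy454 cells, an osteocyte-like mouse line. The genes were taken by name and are Tnfsf11 (RANKL), Tnfrsf11b (osteoprotegerin, OPG), Csf1, Il34, Kitl (stem cell factor), Il6, Il11, Lif, Il7 and Ccl2. They make up 10 of the 39179 genes listed for the differentiation experiment and 10 of the 35886 genes to which the transcripts of the sorted cells were summed.

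Ocy454 is a single conditionally immortalized line with a thermosensitive large T antigen, expanded at 33 °C until confluent and then moved to 37 °C, where the antigen is inactivated and the cells differentiate. The labels name no edit and no added agent in any of these libraries. RNA was taken on days 1, 7, 10 and 14 after the shift, with 2 libraries per day and 8 in all. In a separate experiment, live cells kept at 37 °C for 17 days, as the labels give it (the descriptions of the study differ by 1 day), were stained for surface CD61 (integrin beta 3, the product of Itgb3), and the 10% with the brightest signal (CD61 high) and the 10% with the dimmest (CD61 low) were collected, with 3 libraries each.

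RANKL binds its receptor RANK on osteoclast precursors and drives them to form osteoclasts, and OPG is a soluble decoy receptor that keeps RANKL from reaching RANK. Osteocytes are a major source of RANKL in adult bone, and osteoblasts and osteocytes also secrete OPG. CSF1 and IL-34 share the receptor CSF1R and keep osteoclast precursors alive, whereas KIT ligand, IL-7 and CCL2 act on blood stem cells, lymphoid progenitors and monocytes, and IL-6, IL-11 and LIF signal through the shared receptor chain gp130.

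The libraries of the differentiation days held 27518605 to 34311238 reads counted on genes (median 31454642), so that 3 reads, the limit that a count of 0 allows, were worth 0.0874 to 0.109 CPM, the reads of a gene scaled to a common library total. The sorted libraries held 18815602 to 19220064 estimated counts (median 19059368), and 3 counts were worth 0.156 to 0.159 CPM. Such limits and the intervals of count ratios given here cover counting error only. In the sort, Itgb3 was at 5.65 ± 0.408 normalized CPM in CD61 low and 111 ± 16.4 in CD61 high cells (SD, n = 3), in the order of the gate. Of 16 osteoblast and osteocyte markers, 8 were called higher and 0 lower on day 14 against day 1 (all genes tested, 7.51% and 5.9%). In CD61 high cells 10 were higher and 0 lower (all genes tested, 4.84% and 4.37%). The summed level of these markers ran from 36247 to 36292 CPM at day 1 and from 30867 to 35992 at day 14. It ran from 18072 to 22020 in CD61 low and 51108 to 53819 in CD61 high libraries. Col1a1, the collagen gene, makes up most of this sum (34709 CPM at day 1 and 25243 at day 14, 17664 in CD61 low and 44785 in CD61 high cells), while Ibsp rose from 221 to 4274 and Alpl from 412 to 1676 CPM by day 14. The called markers differed in the same comparisons as the cytokines described here, and their part in the results was not tested. Blood-cell markers summed to 6.93 to 15.0 CPM over the 8 differentiation libraries and to 13.5 to 23.6 over the 6 sorted ones. Most of these sums came from Cd68, Cd14 and Fcer1g, at 1.66, 5.14 and 6.96 CPM at day 1. They were at 14.2, 5.74 and 1.10 normalized CPM in CD61 low and 8.07, 4.14 and 0.818 in CD61 high cells. Adgre1, C1qa, C1qb, Cd3e and Ms4a1 were at 0 in every library. Marrow stromal markers, mostly Cxcl12 and Foxc1, summed to 372 to 390 CPM at day 1 and 149 to 154 at day 14, and to 265 to 304.5 in CD61 low and 239 to 257 in CD61 high libraries. Endothelial markers summed to at most 3.23 CPM and adipocyte markers to at most 0.774 CPM in any library. These are bulk libraries, in which fewer cells expressing a gene and less RNA per cell cannot be told apart.

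The start-site regions of the genes that carry the results are shown first, because Csf1 and Kitl were lower together in CD61 high cells and Tnfsf11 had few reads in every library. RefSeq promoter entries (250 bases before to 50 after the start of transcription, GRCm38.p6) were matched for 6 of the 10 genes, with 7 entries because Il11 has 2. Tnfrsf11b, Il34, Il7 and Ccl2 had no entry. Capitals mark matches on either strand to a TATA box (TATAAA), an NF-kB motif (GGGA, any 4 bases, CC) or a GC box (GGGCGG). These regions are chr14:78307994-78308293 (minus strand) for Tnfsf11, chr3:107760420-107760719 (minus) for Csf1 and chr10:100015571-100015870 (plus) for Kitl.
Tnfsf11: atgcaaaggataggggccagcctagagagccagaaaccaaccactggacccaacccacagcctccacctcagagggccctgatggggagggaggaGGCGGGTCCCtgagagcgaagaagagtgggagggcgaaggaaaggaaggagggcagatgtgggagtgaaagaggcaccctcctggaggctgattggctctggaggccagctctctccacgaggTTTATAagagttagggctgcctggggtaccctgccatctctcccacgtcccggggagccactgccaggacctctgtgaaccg
Csf1: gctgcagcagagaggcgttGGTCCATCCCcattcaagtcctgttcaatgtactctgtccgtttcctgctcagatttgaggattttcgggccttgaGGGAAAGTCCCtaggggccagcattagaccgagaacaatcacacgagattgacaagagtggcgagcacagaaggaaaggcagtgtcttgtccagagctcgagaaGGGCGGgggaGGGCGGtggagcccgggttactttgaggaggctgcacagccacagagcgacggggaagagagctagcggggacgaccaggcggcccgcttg
Kitl: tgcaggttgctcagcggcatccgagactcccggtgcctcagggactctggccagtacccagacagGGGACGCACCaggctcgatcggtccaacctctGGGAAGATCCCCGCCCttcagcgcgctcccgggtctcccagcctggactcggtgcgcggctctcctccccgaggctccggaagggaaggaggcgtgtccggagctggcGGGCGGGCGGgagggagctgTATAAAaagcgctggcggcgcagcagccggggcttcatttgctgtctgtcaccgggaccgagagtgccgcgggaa

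The Kitl region held a TATA box 25 bases before the start, 3 NF-kB matches and 3 GC boxes. The Csf1 region held 3 NF-kB matches and 2 GC boxes and no TATAAA. In each of these regions 2 of the NF-kB matches are the same letters read on opposite strands, shifted by 1 base, and in Kitl they share 1 base with a GC box on the minus strand, while the other two GC boxes of Kitl overlap. The Tnfsf11 region held 1 NF-kB match and, 32 bases before the start, the TATA letters on the opposite strand (TTTATA). The Lif region held 1 NF-kB match and the AP-1 letters TGACTCA, and the Il6 region 2 overlapping NF-kB matches and TGAGTCA. The 2 Il11 regions held no NF-kB match and no TATAAA, but 5 GC boxes between them, of which 3 overlap, and TGAGTCA once. Among all 32851 RefSeq promoters of this length, 20.7% held the NF-kB motif, 35.7% the GC box, 13.6% the TATA box and 7.81% the AP-1 motif TGANTCA. No CRE (TGACGTCA, in 1.79% of promoters) and no interferon-response letters (GAAA, any 2 bases, GAAA, in 3.44%) were found in the 7 regions. These matches describe the letters only.

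Expression over the differentiation days was compared first, to ask how these cytokines moved as Ocy454 cells matured. OPG rose and Csf1 and Ccl2 fell. OPG averaged 14.0 ± 1.50, 227 ± 19.3, 81.6 ± 3.00 and 104.3 ± 11.1 CPM on days 1, 7, 10 and 14, respectively (SD, n = 2). RANKL was near 1 CPM on every day. The test was limma on log2(CPM + 1), a scale that understates the change of genes at low expression, over genes that passed 1 CPM in any library. A gene was called where its Log2FC lay beyond 1 in either direction with an adjusted p under 0.01. Of the 10 genes, 7 were tested, and Il6, Il11 and Il7 were below the filter. At day 7 against day 1, 1 of the 7 was called higher and 2 lower, beside 9.11% of all 12725 genes tested (4.49% higher and 4.62% lower). At day 10 the counts against day 1 were again 1 higher and 2 lower (10.5% of all genes, 6.06% and 4.42%), and at day 14 they were 1 and 1 (13.4%, 7.51% and 5.9%). Libraries of the later day and of day 1 did not overlap for 6 of the 7 at day 7 (83.7% of all genes tested), 5 at day 10 (86.4%) and 6 at day 14 (87.1%), so these shares were close to the background.

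**Figure D1:**
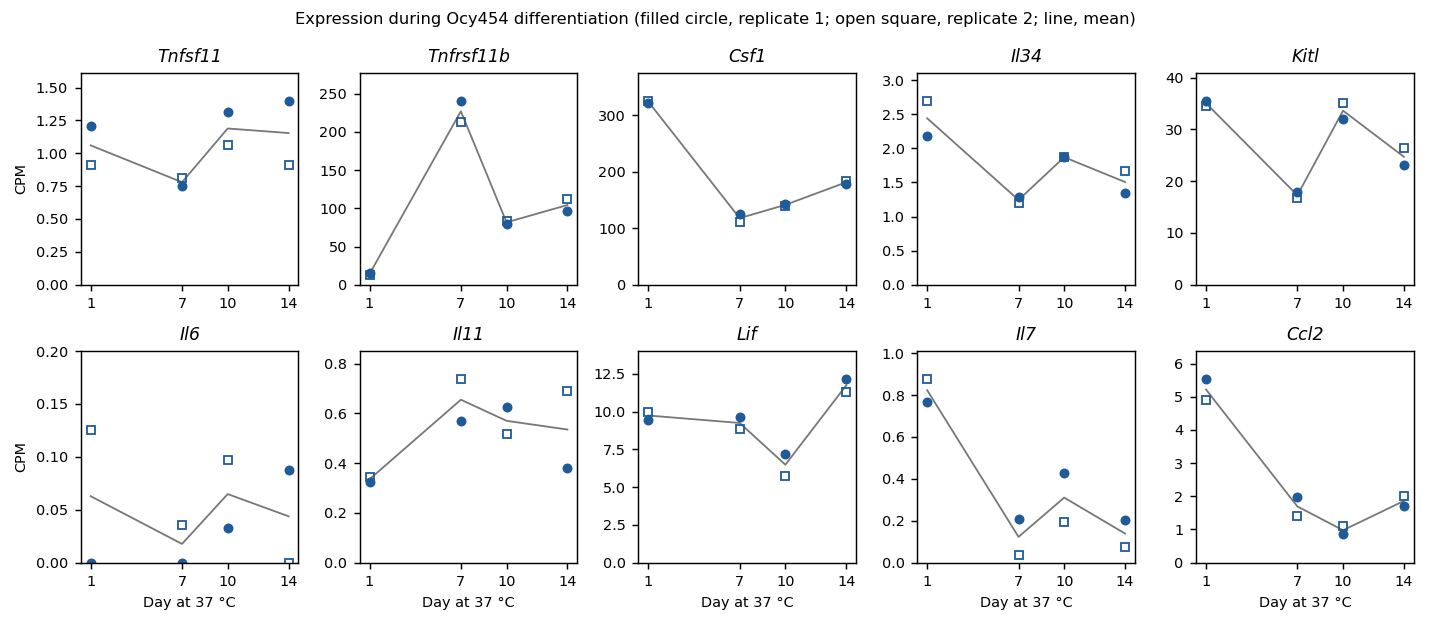
CPM of the 10 genes (vertical axes, each from 0) against day at 37 °C (horizontal axes), with 1 point per library and a line through the daily means. OPG (Tnfrsf11b) peaked at day 7 with 227 CPM, Csf1 was highest at day 1 with 324 CPM, and Il6 never passed 0.125 CPM.

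RANKL (Tnfsf11, chr14:78514885-78545490, minus strand, GRCm39), the ligand that drives osteoclast formation, was read 41 and 29 times in the day 1 libraries, or 1.21 and 0.910 CPM. The day 7 libraries held 0.750 and 0.810 CPM, those of day 10 held 1.31 and 1.06 CPM, and those of day 14 held 1.40 and 0.908 CPM. The libraries of days 1, 10 and 14 overlapped, and only those of day 7 lay below all others. At day 14 against day 1 the Log2FC was 0.06 ± 0.15 (SE), with a 95% interval of -0.26 to 0.38 (limma, adjusted p = 0.737). The means stood 1.09-fold apart. At this level the added 1 CPM shrinks any change, so the interval cannot be set against the fold threshold. The sign of this small difference changed when day 14 replicate 1 was left out (-0.11), and also when day 1 replicate 2 was left out (-0.05).

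OPG (Tnfrsf11b, chr15:54114015-54142075, minus strand, GRCm39), the decoy receptor, was at 15.1 and 13.0 CPM in the day 1 libraries and at 241 and 213 CPM in those of day 7. It then stood at 79.5 and 83.7 CPM (day 10) and at 96.5 and 112 CPM (day 14). The groups of each day lay apart, with day 7 highest, day 14 and day 10 next and day 1 lowest. Against day 1 its Log2FC was 3.92 ± 0.07, 2.46 ± 0.07 and 2.81 ± 0.07 on days 7, 10 and 14 (limma, adjusted p = 5.41e-26, 1.57e-21 and 5.49e-23). From day 7 to day 10 OPG fell by 1.46 on the log2 scale (adjusted p = 1.15e-15), and it was the single one of the 7 tested genes called in that comparison, where 2.22% of all genes were called (0.786% lower). From day 10 to day 14 none of the 7 was called by limma, beside 2.96% of all genes. edgeR on the recovered reads called 0 of them there as well.

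Because the balance of ligand and decoy bears on osteoclast formation, the log2 ratio of Tnfsf11 to Tnfrsf11b was taken in each library, with 0.1 CPM added to each. This ratio is not corrected for gene length and is used only to compare groups. It was -3.54 and -3.70 in the day 1 libraries, -8.15 and -7.87 in those of day 7, -5.82 and -6.17 in those of day 10, and -6.01 and -6.80 in those of day 14. Every later library lay below both day 1 libraries. Between day 14 and day 1 the mean ratio differed by -2.79 on the log2 scale (exact permutation test, two-sided p = 0.333, the smallest that 2 against 2 libraries can give), and by -3.18 to -2.39 when any 1 of the 4 libraries was left out. On the scale of CPM per kilobase, which allows genes to be compared, OPG was at 4.99 ± 0.535 and RANKL at 0.475 ± 0.0953 at day 1, and they were at 37.1 ± 3.94 and 0.517 ± 0.155 at day 14 (SD, n = 2).

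**Figure D2:**
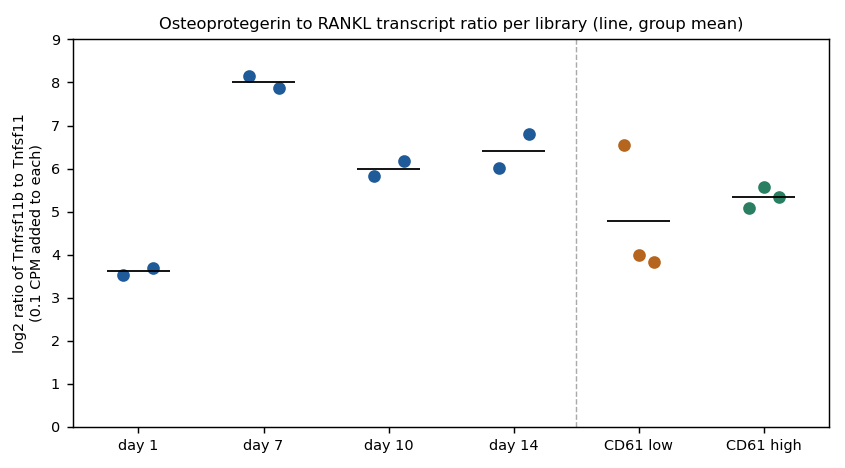
Log2 ratio of OPG (Tnfrsf11b) to RANKL (Tnfsf11) CPM on the vertical axis, the negative of the ratio given in the text, for each library of the 4 days and of the sorted cells (points; lines, group means). The day 1 libraries lie lowest among the days, and CD61 low replicate 1, which had 0 RANKL counts, lies above the other 5 sorted libraries.

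Csf1 (chr3:107648364-107667806, minus strand, GRCm39), the growth factor of monocytes and osteoclast precursors, was the most abundant of the 10 genes at day 1 on the per-kilobase scale, at 60.1 ± 0.418 CPM per kilobase. The libraries of day 1 held 322 and 325 CPM, those of day 7 held 125 and 111, those of day 10 held 143 and 139, and those of day 14 held 179 and 183. The days did not overlap, with the lowest level at day 7 and a return toward but not up to the day 1 level afterwards. Csf1 fell by 1.45 ± 0.04 on the log2 scale at day 7 and by 1.19 ± 0.04 at day 10 (limma, adjusted p = 2.84e-20 and 2.13e-18). At day 14 its Log2FC was -0.83 ± 0.04 (adjusted p = 3.7e-15), short of the fold threshold. Il34 (chr8:111423928-111532584, minus strand), the other ligand of CSF1R, averaged 2.44 ± 0.363, 1.24 ± 0.0657, 1.87 ± 0.00150 and 1.51 ± 0.234 CPM on the 4 days in turn and was not called on any day (Log2FC at day 7 -0.61 ± 0.14, adjusted p = 0.000391).

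Kitl (chr10:99851492-99936278, plus strand, GRCm39), which encodes the ligand that maintains blood stem cells and mast cells, was at 35.5 and 34.6 CPM in the day 1 libraries, 17.8 and 16.7 in those of day 7, 32.1 and 35.2 in those of day 10, and 23.1 and 26.3 in those of day 14. Days 1 and 10 overlapped, and days 7 and 14 lay below them. At day 7 the Log2FC was -0.98 ± 0.07 (limma, adjusted p = 4.41e-12), just short of the fold threshold. Without day 7 replicate 1 it was -1.03, and with 0.1 rather than 1 CPM added it was -1.02, and in both settings it was called. Between day 10 and day 7 it was 0.92 ± 0.07 (adjusted p = 4.14e-11).

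Of the gp130 ligands, Lif (chr11:4207557-4222514, plus strand) averaged 9.74 ± 0.375, 9.25 ± 0.581, 6.48 ± 1.05 and 11.7 ± 0.623 CPM on days 1, 7, 10 and 14. It was lowest at day 10, and its largest difference between successive days, from day 10 to day 14, was a Log2FC of 0.77 ± 0.10 (limma, adjusted p = 4.62e-07) and was not called. Il11 (chr7:4775372-4785858, minus strand), which acts on osteoclast formation and on stromal cells, was at 11 reads in each day 1 library and at 13 to 21 reads in each later one, from 0.325 to 0.739 CPM over all libraries. Il6 (chr5:30218112-30224979, plus strand), an inflammatory cytokine, had 0 to 4 reads per library and 4, 1, 4 and 3 reads in all at days 1, 7, 10 and 14, so that no difference was detectable at this depth.

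Il7 (chr3:7635054-7678825, minus strand), the growth factor of early B and T cells, was at 26 and 28 reads at day 1 (0.767 and 0.878 CPM). The libraries of day 7 held 7 and 1 reads, those of day 10 held 13 and 6, and those of day 14 held 7 and 2, and every later library lay below both day 1 libraries. It was below the filter, and at its level the log2(CPM + 1) scale could not reach the fold threshold. With no filter its Log2FC against day 1 was -0.70, -0.48 and -0.68 at days 7, 10 and 14. The adjusted p values were 0.00152, 0.00885 and 0.0013 (limma), and it was not called. The reads in all were 54 at day 1 and 8, 19 and 9 on the later days, too few for a firm fold. An antisense lncRNA, Gm16685, overlaps 11.7% of the exon bases of Il7, and since the counting is not stated to use strand, its reads cannot be told apart there. The same limit holds for smaller opposite-strand overlaps of Il34 with Vac14 (2.62% of exon bases), Gm15895 (1.97%) and Gm15894 (0.577%). It also holds for the overlap of Csf1 with Gm40121 (2.71%). Ccl2 (chr11:81926397-81928279, plus strand), which attracts monocytes, was at 5.55 and 4.89 CPM in the day 1 libraries, 1.98 and 1.41 in those of day 7, 0.854 and 1.10 in those of day 10, and 1.72 and 2.00 in those of day 14. The later days lay below day 1 and day 10 was lowest. Ccl2 fell by 1.21 ± 0.14, 1.66 ± 0.14 and 1.12 ± 0.14 on the log2 scale at days 7, 10 and 14 against day 1 (limma, adjusted p = 3.02e-08, 7.21e-11 and 7.87e-08). The added 1 CPM shrinks these values, and at day 10 the means differed 5.36-fold, with a Log2FC of -2.31 with 0.1 CPM added and -2.44 with edgeR on the recovered reads.

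On the per-kilobase scale the order of the 10 genes differed between the ends of the time course. At day 1, Csf1 was followed by Kitl at 6.0 ± 0.114, Tnfrsf11b at 4.99 ± 0.535, Ccl2 at 4.13 ± 0.368 and Lif at 2.24 ± 0.0863 CPM per kilobase, with the other 5 genes below 1. At day 14, Tnfrsf11b at 37.1 ± 3.94 and Csf1 at 33.7 ± 0.614 led and did not differ beyond the spread of Tnfrsf11b. Kitl at 4.23 ± 0.395, Lif at 2.70 ± 0.143 and Ccl2 at 1.47 ± 0.156 came next. Il34 at 0.589 ± 0.0915 and Tnfsf11 at 0.517 ± 0.155 overlapped, and Il11, Il7 and Il6 were below 0.3 CPM per kilobase.

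The CD61 sort asked how the same genes differed between cells with much and with little of the surface protein by which the study parted more from less mature cells. OPG was higher and Kitl and Csf1 were lower in CD61 high cells, and Ccl2, Il34 and Il7 had few reads there. edgeR's quasi-likelihood test was run on genes whose normalized count reached 5 in each of the 6 libraries. Of the 10 genes, 5 were tested, of which 1 was called higher and 2 lower, beside 9.22% of all 12077 genes tested (4.84% higher and 4.37% lower). The groups did not overlap for 4 of the 5, all but Il11, beside 58% of all genes. TMM scaling factors split the groups, at 1.10 to 1.13 for CD61 low and 0.895 to 0.909 for CD61 high libraries. With scaling by library size alone, the median over all genes was a Log2FC of -0.29 and 316 genes were called higher and 963 lower, beside 585 and 528 with TMM, and under that scaling the same number of the 10 genes, 3, was called, with no change of direction among those tested. The experiments used different RNA kits and were normalized separately, so no level is compared between them.

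**Figure D3:**
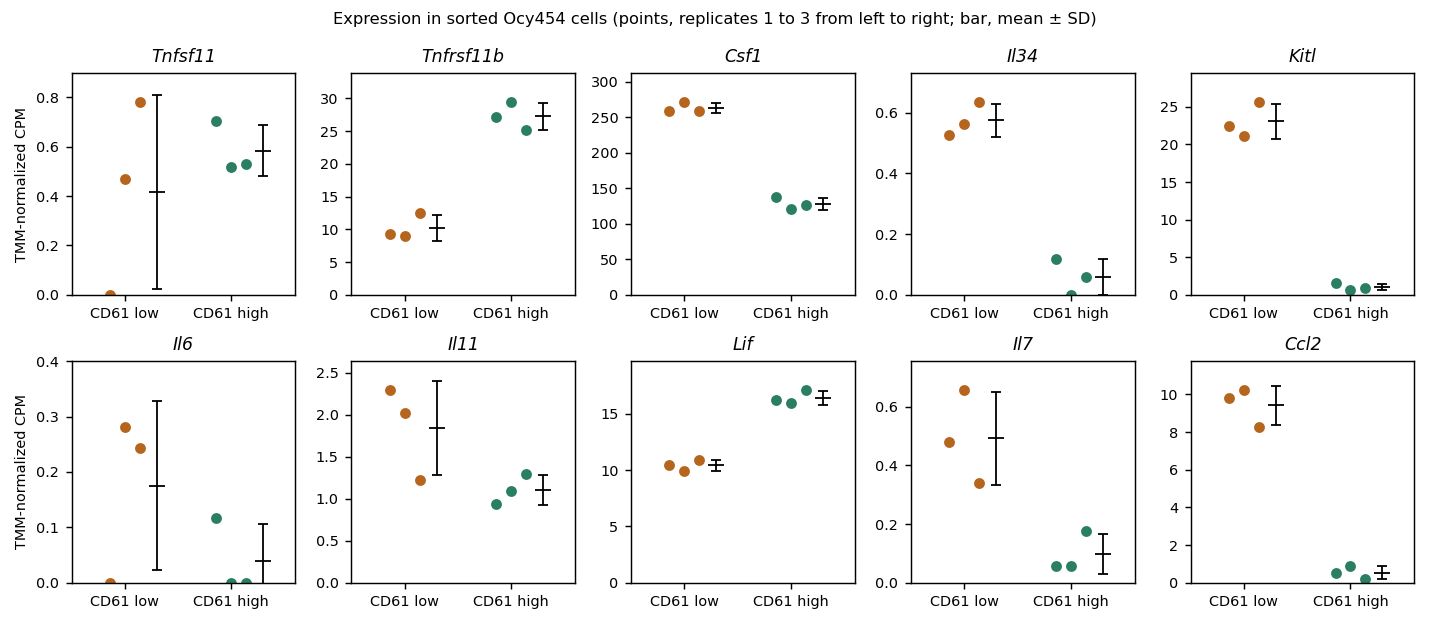
TMM-normalized CPM of the 10 genes (vertical axes, each from 0) in the 3 CD61 low and 3 CD61 high libraries (points), with the mean ± SD beside them. Kitl ran from 21.2 to 25.6 in CD61 low and from 0.691 to 1.53 in CD61 high libraries, and RANKL (Tnfsf11) overlapped between the groups.

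Kitl had 469, 451 and 525 counts in the CD61 low libraries and 26, 12 and 16 in the CD61 high libraries, the largest difference among the 5 tested genes. This was 23.1 ± 2.30 against 1.05 ± 0.428 normalized CPM (SD, n = 3), with every CD61 high library far below every CD61 low one. The Log2FC was -4.45 ± 0.21 (edgeR, adjusted p = 2.83e-07), with means that differed 21.9-fold, and it ran from -4.81 to -4.22 over the 14 alternatives tried. Kitl is made in a form that carries a cleavage site and is shed and in a shorter form that stays on the membrane, which differ by an exon. Kitl-202, with 273 codons, holds this exon of 84 bases, exon 6 of its 10, at chr10:99916719-99916802 (plus strand, GRCm39), and Kitl-201, with 245 codons, lacks it. The exon is printed because it is what tells the forms apart.
Kitl-202 exon 6: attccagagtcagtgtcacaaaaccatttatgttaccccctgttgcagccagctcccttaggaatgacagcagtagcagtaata
Kitl-202 took 93.8 ± 5.36% of the TPM of Kitl in CD61 low cells and all of it in each CD61 high library, and Kitl-201 took 1.96 ± 1.96% in CD61 low cells and 0 estimated counts in CD61 high cells. Kitl-202 also has a last exon of 4399 bases in a transcript of 5648, so most reads assigned to it need not cover the 84 bases, and with 54 counts in all CD61 high libraries a shorter form at a small share would not be detectable.

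OPG had 193, 191 and 256 counts in CD61 low and 462, 511 and 429 in CD61 high libraries, or 10.2 ± 1.97 against 27.3 ± 2.10 normalized CPM. The lowest CD61 high library, at 25.2, was above the highest CD61 low library, at 12.5. The Log2FC was 1.41 ± 0.14 (edgeR, adjusted p = 1.79e-05), with means that differed 2.66-fold. RANKL had 0, 10 and 16 counts in CD61 low and 12, 9 and 9 in CD61 high libraries, or 0, 0.469 and 0.781 against 0.704, 0.518 and 0.529 normalized CPM. The groups overlapped, and RANKL was below the filter because of the 0 in CD61 low replicate 1, which allows up to 3 counts. With no filter its Log2FC was 0.48 ± 0.83 (edgeR, adjusted p = 0.673), and without CD61 low replicate 1 it was -0.10, so neither a direction nor a size could be read from these libraries.

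The log2 ratio of RANKL to OPG was -6.54, -3.99 and -3.84 in CD61 low and -5.08, -5.58 and -5.33 in CD61 high libraries. CD61 low replicate 1 lay below all CD61 high libraries and the other two CD61 low libraries lay above them. The means, -4.79 ± 1.52 and -5.33 ± 0.249, differed by -0.54 (exact permutation test, two-sided p = 0.5, the smallest possible being 0.1). Without CD61 low replicate 1 the difference was -1.41 and without the replicate 3 of that group it was -0.06. With 1 CPM added in place of 0.1 it was -1.14 (exact permutation p = 0.1). RANKL, at 0.781 normalized CPM or less, lay below the added 1 CPM in every sorted library. That value therefore mostly follows the difference in OPG and is no separate test of the ratio. On the per-length scale of TPM, OPG was at 8.02 ± 1.75 and RANKL at 0.428 ± 0.407 in CD61 low cells and at 17.1 ± 1.29 and 0.473 ± 0.108 in CD61 high cells.

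Csf1 was at 259, 271 and 259 normalized CPM in CD61 low and 138, 121 and 126 in CD61 high libraries. The groups lay well apart, with the CD61 high libraries all near the lower level. Csf1 fell by 1.03 ± 0.07 on the log2 scale (edgeR, adjusted p = 1.89e-06), just past the fold threshold. It was -0.996 without CD61 high replicate 2 (adjusted p = 9.75e-06) and -0.93 with an offset for transcript length (adjusted p = 4.31e-05), and in both settings it was not called. Transcripts that encode the full-length form of 552 codons took 85.0 ± 5.89% of the TPM of Csf1 in CD61 low and 78.1 ± 6.22% in CD61 high cells, and the transcript of 257 codons took 5.63 ± 1.39% and 4.81 ± 5.45%, differences within the spread of the libraries. Il34 had 11, 12 and 13 counts in CD61 low and 2, 0 and 1 in CD61 high libraries, all of the latter lower. The ratio of the summed counts, 36 to 3, was 9.84 with a 95% interval of 3.11 to 49.9. Il34 was below the filter, and with no filter its adjusted p was 0.0121 (edgeR), short of the threshold.

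**Figure D4:**
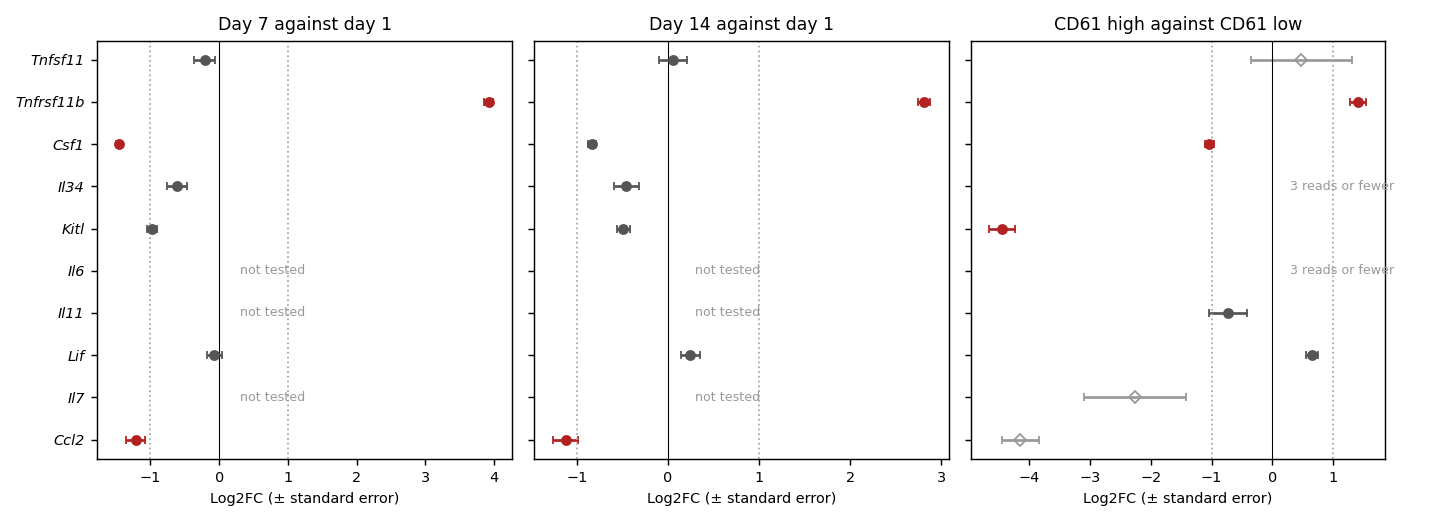
Log2FC with its standard error (horizontal axes) for the 10 genes at day 7 and day 14 against day 1 (limma on log2(CPM + 1)) and in CD61 high against CD61 low cells (edgeR), with dotted lines at -1 and 1. Red points were called, grey points were tested and not called, and open diamonds are values of genes below the filter from the fit without it. OPG is the only gene to the right of 1 in any panel, and Kitl at -4.45 lies farthest to the left.

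Ccl2 had 205, 218 and 169 counts in CD61 low and 9, 15 and 3 in CD61 high libraries, or 9.43 ± 1.04 against 0.523 ± 0.344 normalized CPM. Every CD61 high library lay far below the CD61 low ones. The 3 counts of CD61 high replicate 3 put Ccl2 below the filter, so it is not among the 5 tested genes. With no filter its Log2FC was -4.15 ± 0.31 (edgeR, adjusted p = 2.3e-08) and it was called, beside 7.4% of 17853 genes in that fit (4% lower), and it was called too when CD61 high replicate 3 was left out (-3.75, adjusted p = 1.21e-05). Ccl2 was tested in 3 of the alternatives tried and was called in each, with a Log2FC from -4.15 to -3.75. These were no filter, edgeR's own filter, which a high level in 1 group alone can pass, and leaving out the library that failed the filter. They are therefore not separate support. The ratio of the summed counts was 18.0, with a 95% interval of 12.2 to 27.5. Il7 had 10, 14 and 7 counts in CD61 low and 1, 1 and 3 in CD61 high libraries, a ratio of 5.08 with a 95% interval of 1.96 to 16.7. With no filter its adjusted p was 0.0473 (edgeR) and it was not called.

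Among the gp130 ligands, Lif was at 10.5, 9.95 and 10.9 normalized CPM in CD61 low and 16.3, 15.9 and 17.1 in CD61 high libraries. The groups did not overlap, and the Log2FC of 0.66 ± 0.11 (edgeR, adjusted p = 0.000522) was short of the fold threshold. With an offset for transcript length its Log2FC was 0.37 (adjusted p = 0.118), and with library size alone it was 0.35 (adjusted p = 0.0142). In TPM, which carries a length correction and no TMM scaling, it was at 9.11 ± 2.37 against 9.50 ± 0.860. The shares of the Lif transcripts varied widely among libraries, with Lif-201 (158 codons) at 10.0% to 78.7% of TPM within the CD61 high group. Il11 was at 1.84 ± 0.558 normalized CPM in CD61 low and 1.11 ± 0.178 in CD61 high cells, the groups overlapped, and its Log2FC was -0.73 ± 0.31 (edgeR, adjusted p = 0.072). Il6 had 0, 6 and 5 counts in CD61 low and 2, 0 and 0 in CD61 high libraries, a ratio of 4.51 with a 95% interval of 0.984 to 41.9.

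Per length, Csf1 led in both groups of sorted cells, at 140 ± 12.8 TPM in CD61 low and 60.2 ± 5.92 TPM in CD61 high. In CD61 low cells Ccl2 followed at 28.0 ± 2.44, and then Kitl at 9.28 ± 1.62, Lif at 9.11 ± 2.37 and Tnfrsf11b at 8.02 ± 1.75, which did not differ beyond their spread. In CD61 high cells Tnfrsf11b was second at 17.1 ± 1.29 and Lif next at 9.50 ± 0.860. The TPM of Lif includes the share of the short transcript Lif-203 given above. Ccl2 at 1.22 ± 0.856 and Kitl at 0.322 ± 0.151 TPM stood there among the lower ones, with libraries that overlapped those of Il11 (1.66 ± 0.336) and RANKL (0.473 ± 0.108), respectively.

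The genes whose pattern was most like that of a main cytokine were found by the mean of 2 Pearson correlations, 1 over the 8 differentiation libraries and 1 over the 6 sorted libraries, of log2 levels, among genes at a mean of at least 5 CPM in both. The libraries of a group share their culture conditions, so these values are a description. For Kitl they were Apol9b, Eya1 and Tor1aip2 (mean r = 0.99 for each), of which Apol9b stood at 17.4, 4.72, 16.3 and 8.35 CPM on days 1, 7, 10 and 14 and at 64.1 and 10.6 normalized CPM in CD61 low and CD61 high cells. For OPG they were Phldb1, Cpe and Galnt3 (0.99 for each), and Cpe, which encodes carboxypeptidase E, stood at 459, 1268, 835 and 1029 CPM on the 4 days. For Csf1 they were Ifi204, Ablim1 and Sgk1 (0.99 for each), and Sgk1, a kinase, went from 73.0 CPM at day 1 to 10.4 at day 7. For RANKL the closest were Cep192, Dstyk and Braf, at 0.87, 0.85 and 0.80, and these rest on few RANKL reads.

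Of 15 receptors of these cytokines, 8 passed the filter in both experiments, and the other 7 were at or near 0 or below 1 CPM. Tnfrsf11a (RANK), Kit, Il7r, Ccr2 and Ackr1 were at or below 0.0182 CPM on average on every day and at 0 in the sorted cells, and Csf1r was at 0.633 CPM or less. Of the 8 tested, 2 were called higher and 1 lower at day 14, and the same counts held in CD61 high cells. Over all genes tested, 7.51% were called higher and 5.9% lower at day 14, and 4.84% and 4.37% in the sort. Lifr, the LIF receptor, rose from 190 ± 0.226 to 398 ± 25.2 CPM between day 1 and day 14 (Log2FC 1.06 ± 0.04) and was at 140 in CD61 low and 367 normalized CPM in CD61 high cells (1.39 ± 0.15). Without day 14 replicate 1 its day 14 Log2FC was 0.99 and was not called. Il6st, which encodes gp130, was at 239 and 118 normalized CPM in these cells (-1.02 ± 0.10, edgeR, adjusted p = 1.73e-05). It was -0.96 and not called without CD61 low replicate 3, and likewise without CD61 high replicate 2, so that 0 receptors were then called lower. Ptprz1, a phosphatase that binds IL-34, rose from 0.462 to 26.1 CPM (4.22 ± 0.13) and was at 6.84 in CD61 low and 21.1 in CD61 high cells (1.63 ± 0.18). Sdc1, a proteoglycan that also binds IL-34, fell by 1.43 ± 0.04 on the log2 scale at day 14. The median Log2FC of the tested receptors was 0.28 at day 14 and 0.13 in the sort, beside -0.03 and 0.00 over all genes, and scaling by library size alone turned the second to -0.17. With no filter these medians were 0.08 over 12 receptors and 0.44 over 10.

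All 14 listed genes that respond to gp130 and STAT3 signalling were tested. On day 14, 1 was called higher and 2 lower (all genes, 7.51% and 5.9%). In CD61 high cells 2 were higher and 3 lower (all genes, 4.84% and 4.37%). The medians were 0.20 and 0.02 (-0.28 in the sort with scaling by library size alone). This list shares Lifr and Il6st with the receptors, and Lifr is the gene called higher at day 14, so that 0 were called higher without day 14 replicate 1, whereas 2 were without day 1 replicate 1. The 3 called lower in the sort are Osmr, Il6st and Il4ra, and Il4ra (Log2FC just past -1) was not called when CD61 low replicate 1, CD61 high replicate 1 or CD61 high replicate 3 was left out (-0.84 to -0.96) or with the replicate block. Osmr, the receptor chain for oncostatin M, fell at day 14 (Log2FC -1.65 ± 0.06) and in CD61 high cells (-1.23 ± 0.10). Il4ra fell by 1.33 ± 0.09 at day 14, and Cebpd, a transcription factor, rose by 1.36 ± 0.12 in CD61 high cells. The response genes Socs3 and Stat3 were not called in either comparison.

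Of 31 other ligands of the niche, 18 were tested at day 14, with a median of -0.68. There 1 was called higher and 8 lower (all genes, 7.51% and 5.9%). In the sort 16 were tested, with a median of -0.18 (-0.48 with library size alone). Of these 1 was higher and 4 lower (all genes, 4.84% and 4.37%). The filters bear on these counts: with no filter the median was -0.15 over 28 ligands at day 14 and -0.67 over 26 in the sort. edgeR's own filter, which admits ligands that are high in 1 group alone, gave 1 higher and 8 lower of 20 in the sort, and the 4 added calls follow from that choice. Vegfa, the angiogenic factor, was the higher gene in both, from 54.0 to 328 CPM at day 14 (Log2FC 2.58 ± 0.04) and from 244 in CD61 low to 512 normalized CPM in CD61 high cells (1.07 ± 0.07). Vegfa was not called in the sort with scaling by library size alone (0.77) or with the offset for transcript length (0.95), which left 0 called higher. Postn (periostin, from 1670 to 210 CPM), Ptn (pleiotrophin, from 98.8 to 14.5 CPM) and Igf1 (from 10.1 to 0.979 CPM) fell at day 14, with a Log2FC of -2.99 ± 0.04, -2.68 ± 0.07 and -2.49 ± 0.15. In CD61 high cells the guidance factor Sema3a (Log2FC -2.68 ± 0.12), the Notch ligand Jag1 (-1.67 ± 0.09), Ptn (-1.58 ± 0.16) and Angpt1, which like Kitl supports blood stem cells (-1.53 ± 0.14), fell.

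Of 22 other chemokines, 9 were tested at day 14, with a median of -1.23. There 0 were called higher and 5 lower (all genes, 7.51% and 5.9%). In the sort 5 were tested, with a median of -1.77. Of these 0 were higher and 3 lower (all genes, 4.84% and 4.37%). A chemokine such as Ccl7 or Ccl9 passed the day filter through its day 1 level, and with no filter the day 14 median was -0.31 over 18 chemokines. In the sort, edgeR's own filter admits chemokines that are high in CD61 low cells alone and gave 6 lower of 8 (median -2.68), an increase that follows from that choice, and no filter gave 6 lower of 16 (median -1.78). At day 14, Cxcl10 (Log2FC -3.11 ± 0.12), Ccl5 (-2.51 ± 0.14), Cxcl12 (-1.98 ± 0.05) and Cx3cl1 (-1.67 ± 0.08) fell. Cxcl12, which retains stem cells in the marrow, went from 282 ± 8.55 to 70.9 ± 2.48 CPM. In CD61 high cells, Cxcl10 (Log2FC -3.78 ± 0.35), Cxcl1 (-3.16 ± 0.16) and Cx3cl1 (-1.77 ± 0.09) fell, with Cxcl1, which attracts neutrophils, at 16.4 against 1.83 normalized CPM. Cxcl12 was at 118 against 77.7 there and was not called. The 13 chemokines not tested at day 14 did not pass 1 CPM in any library.

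**Figure D5:**
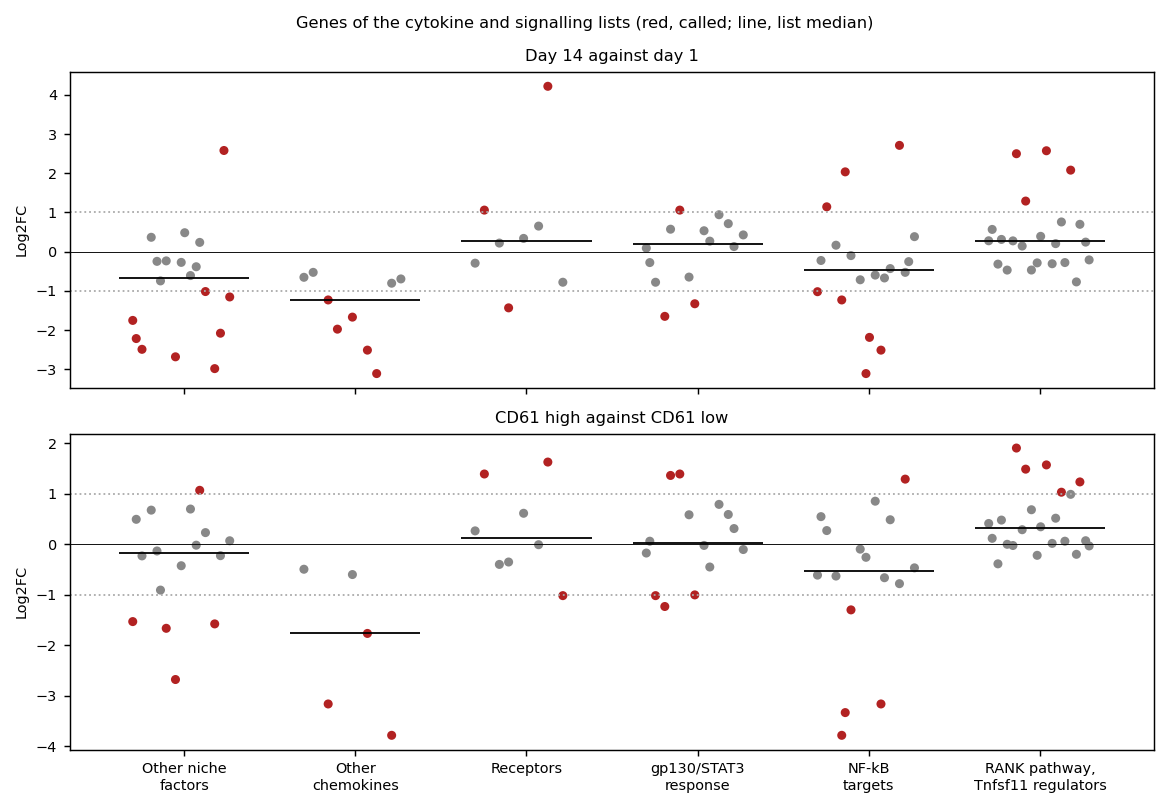
Log2FC (vertical axes) of every tested gene in 6 lists (horizontal axis) at day 14 against day 1 (top, limma) and in CD61 high against CD61 low cells (bottom, edgeR), with called genes in red, list medians as lines and dotted lines at -1 and 1. The medians of the plotted chemokines are -1.23 and -1.77, and no gene of the RANK pathway list was called lower in either panel.

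The list of 21 genes that NF-kB induces or that feed back on it shares 4 chemokines with the one before. At day 14, 18 were tested, of which 3 were called higher and 5 lower (median -0.48, all genes 7.51% and 5.9%). In the sort 16 were tested, of which 1 was called higher and 4 lower (median -0.54, all genes 4.84% and 4.37%). With library size alone, 0 and 4 were called there (median -0.84). Vcam1, an adhesion molecule, fell at day 14 (Log2FC -2.19 ± 0.11) and in CD61 high cells (-3.33 ± 0.28), and Ptgs2, which makes prostaglandins, rose by 2.71 ± 0.06 at day 14. Nfkbie, an NF-kB inhibitor, fell by 1.30 ± 0.17 in CD61 high cells. Calls in this NF-kB list also depended on the filter. Requiring genes to average 5 CPM left 15 at day 14, 3 of them called higher and only 3 lower (median -0.26). Without any filter 20 were tested at day 14, and 3 were higher and 5 lower (median -0.34). In the sort, edgeR's own filter kept 18 genes and no filter kept 20. Under each, 1 was higher and 6 were lower (medians -0.62 and -0.65). All 22 listed genes of the RANK pathway or known to regulate Tnfsf11 were tested. On day 14, 4 were called higher and 0 lower (all genes, 7.51% and 5.9%). In CD61 high cells 5 were higher and 0 lower (all genes, 4.84% and 4.37%), or 3 and 0 with library size alone. The medians were 0.26 and 0.32 (0.02 in the sort with library size alone). Pth1r, the parathyroid hormone receptor, rose from 204 to 1157 CPM at day 14 (Log2FC 2.50 ± 0.04) and by 1.90 ± 0.09 in CD61 high cells. Vdr, the vitamin D receptor, rose by 1.29 ± 0.05 and 1.49 ± 0.09, and Lrp5, a Wnt co-receptor, by 2.57 ± 0.04 and 1.57 ± 0.09. Mef2c, a transcription factor, rose by 2.08 ± 0.04 at day 14, and Runx2, the osteoblast transcription factor, by 1.23 ± 0.11 in CD61 high cells (0.93 and not called with library size alone). Runx2 is also among the osteoblast and osteocyte markers counted above. RANKL itself was below the filter in the sort and was not called at day 14.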

How the data were processed

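For the differentiation libraries the authors used STAR for mapping and HTSeq for counting, and the deposited table gives CPM. Of these CPM values, 100.0% were whole multiples of 1 read (within 0.01), and reads were recovered from them. For the sorted libraries the authors quantified transcripts (GRCm39, release 104) with Salmon, and the deposited files hold an estimated count and a TPM value for each. Software versions of the authors' mapping are not given in the sources used here. Estimated counts were summed per gene with GENCODE M39, which held 115556 of 116747 transcripts, and rounded. Coordinates are from the same annotation, which held 34199 (87.3%) of the identifiers of the differentiation table. All deposited sample columns were used.

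The CPM values were tested with limma 3.58.1 (eBayes with a trend, group means over 8 libraries, log2(CPM + 1)) and the estimated counts with edgeR 4.0.16 (quasi-likelihood, TMM over all genes) in R 4.3.3, with Benjamini-Hochberg adjustment over all genes tested. A limma SE pools the spread over the 4 days. Ratios were compared with exact permutation tests. Libraries of a day were biological duplicates and those of the sort 3 independent groups of cells, all of 1 line. Replicates differed by a chi-square value per gene of 2.35 to 6.74 for the days and 7.17 to 20.8 for the sort, more than counting noise, and were kept apart. edgeR on the recovered reads, run as an alternative, called 1339 genes higher and 953 lower at day 14 against day 1, beside 956 and 751 by limma. The genes described, the lists and the rule for naming genes (all 10 cytokines, from each list at most the 4 called genes with the largest change per comparison, and for 4 cytokines the 3 genes with the most similar pattern) were chosen with earlier results of these data known. The osteoclast markers (11 listed, 4 tested at day 14) gave 1 call higher, which is Itgb3, and 1 lower; in the sort 3 were tested and Itgb3 alone was called. The marrow stromal markers (10 listed, 5 tested) gave 0 higher and 2 lower at day 14 and 0 calls in the sort, the blood-cell markers (16 listed, 3 tested) 0 and 1 and 0 calls, the endothelial markers (8 listed, 1 tested at day 14) 0 calls, and none of the 8 adipocyte markers was tested. Alternatives were another pseudocount, other filters, quantile normalization, DESeq2 1.42.0, other scalings, a transcript-length offset, a replicate block and each library left out. Figures were drawn with matplotlib 3.10.9 from Python 3.11.15.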

Additional observations from a re-analysis of the deposited data

How the results depend on the processing

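Of the values of single cytokines under all alternatives, 552 kept their direction and their side of the threshold, 5 gained and 2 lost a call (given with Kitl, Ccl2 and Csf1 above) and 10 changed sign, all of them small and none called. For Tnfsf11 at day 10 against day 1 the Log2FC was -0.0154 with quantile normalization and ran from -0.0167 (without day 1 replicate 2) to 0.194 with a library left out. At day 14 against day 1 it was -0.0476 with quantile normalization and -0.106 to 0.224 with a library left out, and at day 14 against day 10 it was 0.0451 with edgeR on recovered reads and -0.195 to 0.135 with a library left out. In the sort it was -0.0993 without CD61 low replicate 1. Kitl at day 10 against day 1 ran from -0.123 to 0.0039 (without day 10 replicate 1). With a filter of a mean of at least 5 CPM, which leaves out Ccl2, 2 of the 10 genes were called at day 7, 2 at day 10 and 1 at day 14 against day 1. Leaving out a library gave 3 to 4 calls at day 7, 3 at day 10 and 2 at day 14 against day 1, 1 between days 10 and 7, 0 between days 14 and 10, and 2 to 4 in the sort. It gave log2 ratios of Tnfsf11 to Tnfrsf11b that differed by -1.41 to -0.0612 in the sort and by -3.18 to -2.39 between days 14 and 1. Where a day was left with 1 library, that library was assumed to vary like the others. Over all genes, a pseudocount of 0.1 CPM gave 377 higher and 175 lower calls and edgeR on reads 334 and 216 between days 10 and 7, beside 182 and 100, and between days 14 and 10 they gave 425 and 246 and 504 and 227, beside 266 and 111. Quantile normalization split the calls between days 10 and 7 into 131 higher and 131 lower, beside 182 and 100. Whether libraries of the same number share a culture is not stated. Correlations of same-numbered deviations ran from -0.0253 to 0.0611 for the days. In the sort they were -0.321, 0.220 and -0.0614, and not every library matched its own number best. With the replicate number as a block, 3, 3, 2, 1 and 0 genes were called in the day comparisons and 3 in the sort, and the ratio differed by -0.54 (exact sign-flip p = 0.5), so the block changed none of these counts. Depth limits Tnfsf11, Il34, Il6 and Il7, which had at most 16 counts in any sorted library.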
